A study of Mus musculus with 16 samples.

Results

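The regions described here are 591 genomic intervals that were bound by Nan-KLF1, a mutant of the red cell transcription factor KLF1, lay outside every interval called for normal KLF1, and carried a motif departing from the normal CACCC-type site at the fourth base. They were chosen by values of the deposited peak lists: a peak of the Nan-KLF1 list was taken when it shared no base with a KLF1 peak and when the authors' central motif, written on its C-rich strand and counted from 1 at the 5′ end, had A or T in place of C as the fourth base. The 591 are part of 2758 Nan-KLF1 peaks, and 8084 peaks stand in both lists together, of which 5326 are KLF1 peaks. The other Nan-KLF1 peaks comprised 1235 that overlapped a KLF1 peak, 339 that did not and had C as the fourth base, and 593 that did not and had no central motif. Just inside the rule, the member nearest to a KLF1 peak lay 78 bp away from it, and just outside, the smallest overlap of a shared peak with A or T was 178 bp.

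The series holds 16 mouse samples. Binding was measured in cells derived from K1, an erythroblast line without KLF1: K1-ER cells carry KLF1 fused to a tamoxifen-activated estrogen receptor part (KLF1-ER) and K1-NanER cells carry the Nan mutant fused in the same way (Nan-KLF1-ER). Cells received 200 nM 4-hydroxytamoxifen for 3 h, were fixed with 1% formaldehyde, and chromatin sheared to 200 to 400 bp was precipitated with a KLF1 antibody. Because 3 replicates were pooled before sequencing, there was 1 ChIP library and 1 input library for each factor, and no value of a peak has a replicate check. New RNA was labelled with 500 uM 4-thiouridine (4sU) for 1 h. There were 2 libraries each of K1-ER (clones A and C), K1-NanER (clones B and X) and K1 itself. The labels of these libraries, K1 included, give 200 nM 4-hydroxytamoxifen, and the time of treatment is not given for them. Polyadenylated RNA, depleted of globin RNA, came from whole fetal liver at embryonic day 14.5 of 3 Nan/+ (Klf1 Nan/+) and 3 wild-type embryos. The deposited RNA tables give 1 level per group in FPKM (fragments per kilobase of transcript, scaled to library size) and no counts, so the depth is unknown.

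KLF1 binds DNA through zinc fingers, each of which reads a few neighbouring bases of a C-rich site, and it switches on genes of globin, heme and membrane synthesis in red cell precursors. The Nan allele changes an amino acid in the second of these fingers, at a residue that faces the DNA, and heterozygous mice have a lifelong hemolytic anemia. The comparison of these peaks with the others asks how their motifs, locations and genes differ.

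The motif forms are printed because they define these regions, with the fourth base in capitals. Of 18 forms that occur in the lists, 12 were open to the rule and all 12 were found. The first 6 below are the commonest, and the last 2 are forms with C at that base, shown for comparison.
Form with T, 244 members: cccTgccc
Form with A, 205 members: cccAgccc
Form with A, 42 members: ccaAgccc
Form with T, 29 members: cccTtccc
Form with T, 19 members: ccaTgccc
Form with A, 14 members: cccAaccc
Form with C, no member: ccaCaccc
Form with C, no member: ccaCgccc
The leading pair accounted for 449 members (76.0%). The form cccTgccc made up 19.0% of the 1883 motifs in the Nan-KLF1 list and 4.31% of the 4200 motifs in the KLF1 list. The form cccAgccc made up 16.5% and 5.21% of these motifs. The order was opposite for ccaCaccc, the CACCC box in its best-known form, with 1.49% of Nan-KLF1 motifs and 13.2% of KLF1 motifs. The fourth base is the rule itself, so these shares describe the choice of members and were not tested. KLF1 peaks were not free of such motifs: 832 of 4200 (19.8%) had A or T there. In the Nan-KLF1 list 345 of the 953 shared peaks with a motif had A or T there.

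The remaining variable positions were not part of the rule. In both lists the bases at positions 1, 2, 6, 7 and 8 were always C, the third base was C or A, and the fifth was G, A or T. Among members the fifth base was G in 510 of 591 (86.3%, 95% Wilson interval 83.3 to 88.8), T in 49 and A in 32. Nan-only peaks with C as the fourth base had G in 42.5% (37.3 to 47.8), shared peaks with A or T in 72.5% (67.5 to 76.9), and KLF1 peaks with A or T in 57.0% (53.6 to 60.3). The interval of the members lies above each of these. The share was alike for members with A (86.4%) and with T (86.2%). The third base was C in 86.5% of members (83.5 to 89.0), against 71.4% (66.4 to 75.9) of Nan-only peaks with C as the fourth base. Shared peaks with A or T had C there in 84.6% (80.5 to 88.1) and KLF1 peaks with A or T in 81.5% (78.7 to 84.0), and both intervals overlap that of the members. Members with T and with A differed, at 92.1% (88.6 to 94.7) and 80.4% (75.4 to 84.6). These intervals cover counting error only, since peaks of 1 experiment are not independent replicates.

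Promoter members allowed the motif to be seen in its setting. Of 62 members in promoters, 45 had a gene among the RefSeq promoter windows of build GRCm38.p6, each window running from 250 bases before to 50 bases after a transcription start. In 29 of the 45 (64.4%) a window of the gene held the very motif that the authors gave for the peak, on either strand. The same motifs, weighted by their use among these members, occur in 4.91% of all 32851 windows, with cccAgccc in 6.09% and cccTgccc in 5.19% of windows. These shares are unlike measures, since a gene with several windows counted when any of them matched. The authors gave the motif for a peak they placed in a promoter, so a match was favoured in advance and was not tested. A match is a description of letters, not a site shown to be bound. The peaks are placed on build mm9 and could not be laid onto these windows. The 4 windows below are those of promoter members whose gene has an RNA value, a single start, and the motif before that start. Capitals mark only the form given for the peak, and the strand is that of the gene. Forms with C as the fourth base also occur there unmarked: ccaCgccc on the other strand of Cited4, cccCgccc in Bcl2l2 and cccCtccc in Junb. The forms cccCgccc and cccCtccc occur in 17.6% and 12.2% of all windows.
Cited4, chr4:120666313-120666562, plus strand: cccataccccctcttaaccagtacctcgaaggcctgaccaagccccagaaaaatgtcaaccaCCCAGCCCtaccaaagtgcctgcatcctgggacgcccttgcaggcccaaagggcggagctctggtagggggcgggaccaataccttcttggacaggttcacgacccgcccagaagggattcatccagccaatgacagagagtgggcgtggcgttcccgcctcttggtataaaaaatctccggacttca
Osgin1, chr8:119436897-119437146, plus strand: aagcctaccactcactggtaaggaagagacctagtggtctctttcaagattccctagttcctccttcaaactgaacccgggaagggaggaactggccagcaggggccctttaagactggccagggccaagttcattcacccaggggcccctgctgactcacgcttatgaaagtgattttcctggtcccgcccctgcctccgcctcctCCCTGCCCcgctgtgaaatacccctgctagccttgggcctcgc
Junb, chr8:84978749-84978998, minus strand: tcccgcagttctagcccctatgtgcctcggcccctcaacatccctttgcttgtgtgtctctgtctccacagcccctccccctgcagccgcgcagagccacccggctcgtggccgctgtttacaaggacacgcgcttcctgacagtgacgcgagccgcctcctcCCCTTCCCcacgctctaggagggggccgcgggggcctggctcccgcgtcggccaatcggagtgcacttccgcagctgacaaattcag
Bcl2l2, chr14:54883175-54883424, plus strand: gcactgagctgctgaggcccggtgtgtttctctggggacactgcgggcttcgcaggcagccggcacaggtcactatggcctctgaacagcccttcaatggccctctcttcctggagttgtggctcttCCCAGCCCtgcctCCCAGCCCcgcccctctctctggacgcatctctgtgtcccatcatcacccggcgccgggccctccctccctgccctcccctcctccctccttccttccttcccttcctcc
The motif of Cited4, which encodes a partner of the coactivators CBP and p300, begins 188 bases before the start, and the mm9 peak summit lies 163 bases before the mm9 gene edge. For Osgin1, an oxidative stress response gene, these distances are 43 and 27 bases. For Junb, a subunit of the transcription factor AP-1, they are 87 and 35 bases, and its peak is the member nearest to a KLF1 peak, 78 bp away. Bcl2l2, a survival gene of the Bcl2 family, has 2 copies of its motif, the farther beginning 123 bases before the start, with the summit 137 bases before the gene edge. The motif lies upstream in these 4 windows because they were chosen so.

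Introns held the largest share of the 591 members. By the authors' location classes 290 members (49.1%, 45.1 to 53.1) were intronic, 166 (28.1%) were distal, 62 (10.5%, 8.27 to 13.2) were in promoters, 20 (3.38%) were intergenic, 19 (3.21%) lay in coding exons, 19 were downstream of a gene and 15 (2.54%) were in untranslated regions. Nan-only peaks with C as the fourth base were in promoters in 25.7% (21.3 to 30.6), and shared peaks in 38.8% (36.1 to 41.5), both above the interval of the members. Shared peaks that also had A or T were in promoters in 32.8% (28.0 to 37.9). That interval and the interval of the members do not overlap. Nan-only peaks without a motif were in promoters in 7.42% (5.57 to 9.81), an interval that overlaps that of the members, but were intergenic in 19.7% (16.7 to 23.1). Members with A and with T had nearly the same locations, with 11.5% and 9.51% in promoters and 49.0% and 49.2% in introns. The members lay on 20 chromosomes, with most on chromosome 2, which held 61 members (10.3%) and 7.54% of all Nan-KLF1 peaks.

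**Figure D1:**
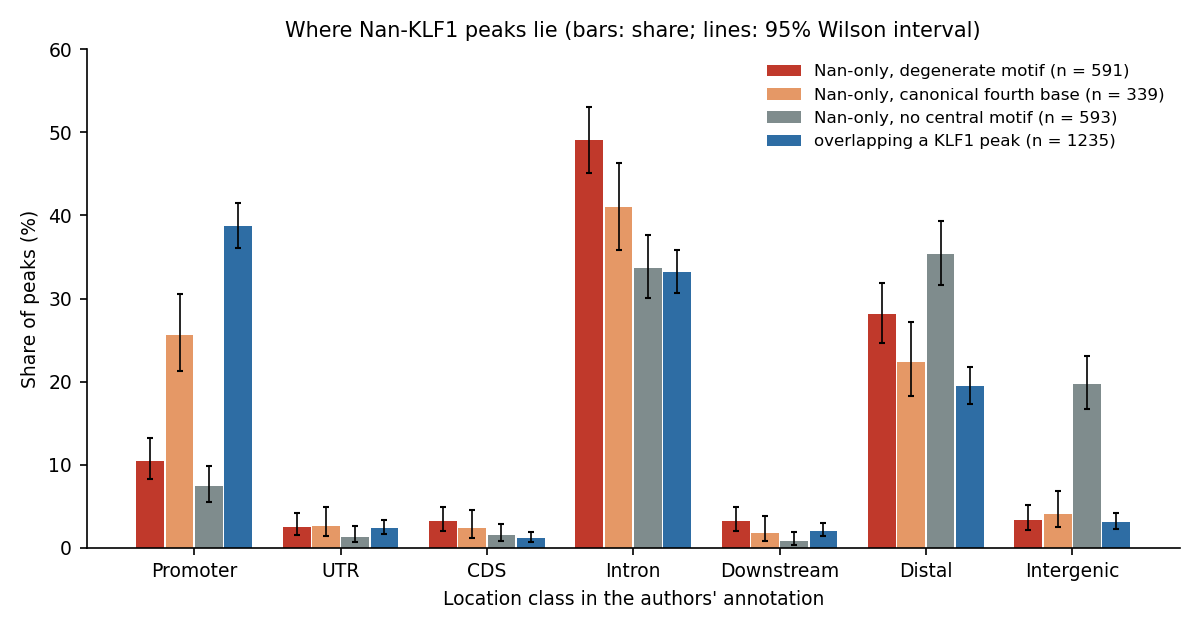
Share of peaks (vertical axis, percent) in each location class of the authors' annotation (horizontal axis) for 4 kinds of Nan-KLF1 peak, with 95% Wilson intervals as lines. The red bars, the 591 members, are highest for introns (49.1%) and low for promoters (10.5%), where shared peaks reach 38.8%.

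Member peaks were of middling strength. Fold enrichment, the authors' ratio of ChIP over input at a peak, had a median of 107 (95% interval 97.5 to 107), quartiles of 87.7 and 142, and a range of 30.5 to 478. The median of all Nan-KLF1 peaks was also 107. Shared peaks had a median of 127 (124 to 134) and shared peaks with A or T one of 128 (119 to 143), above the interval of the members. Nan-only peaks without a motif had a median of 87.7 (80.5 to 90.6), below it. Nan-only peaks with C as the fourth base had 97.5 (97.5 to 107), which overlaps it. The deposited values fall on few levels: 6 levels hold 239 members (40.4%), among them 97.48 with 56 members and 107.23 with 54, so medians of 97.5 and 107 are neighbouring levels. Members with A had a median of 97.5 and those with T one of 107. Members with G as the fifth base also had a median of 107, those with T 97.5 and those with A 95.6. The median width was 450 bp, against 508 bp for shared peaks and 509 bp for Nan-only peaks without a motif. The lists give no KLF1 signal at these positions, so a level of KLF1 below the threshold of peak calling was not tested.

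**Figure D2:**
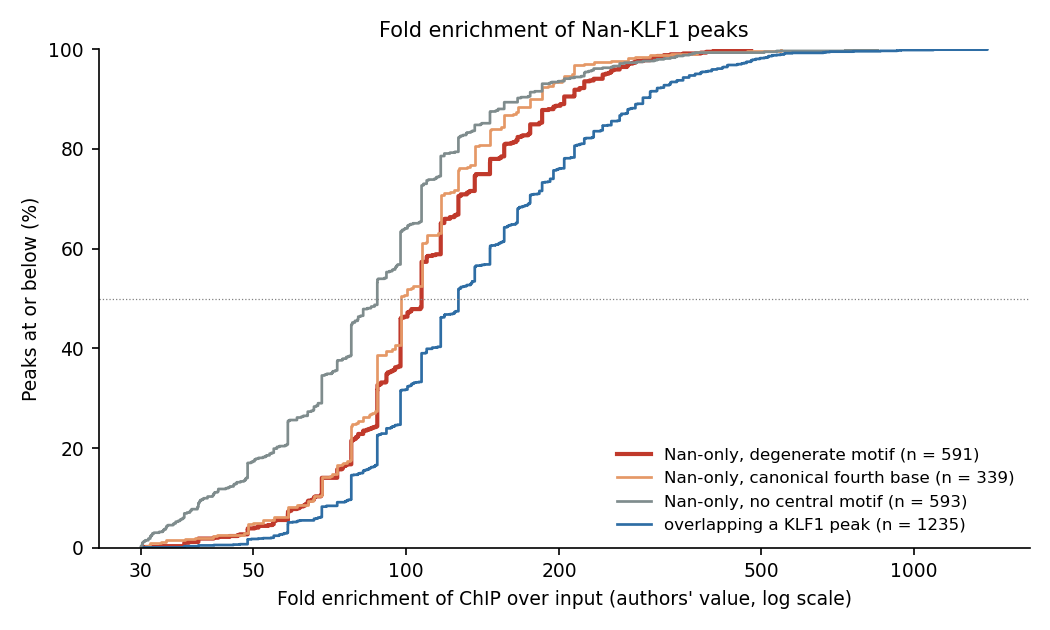
Cumulative share of peaks (vertical axis, percent) at or below a given fold enrichment of ChIP over input (horizontal axis, log scale) for the same 4 kinds of Nan-KLF1 peak. The red line of the 591 members crosses the dotted line at 50% at 107, left of shared peaks (127) and right of peaks without a motif (87.7), and its steps show the few levels on which the values fall.

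The strongest member lay in an intron of Gpt, which encodes alanine aminotransferase, at chr15:76528011-76528869 (mm9) with a fold enrichment of 478 and the motif ccaAgccc. It was 569 bp from the nearest KLF1 peak. Next came a distal peak of Spty2d1, a histone chaperone gene (419, chr7:54268369-54269177), and an intronic peak of Cradd, a death-domain adaptor (402, chr10:94725074-94725851). The peak of Cradd was far from KLF1 binding, with 1226207 bp to the nearest KLF1 peak. Crtc1, a coactivator of CREB, had an intronic peak of 389.91 (chr8:72943790-72944666), and the golgin gene Gcc2 one of 380.16. Eif4g3, a translation initiation factor, followed with 351 in an intron, and the proton channel gene Otop3 with 322 in an intron. The promoters among the 10 strongest were those of Mlxip, a glucose-sensing transcription factor (331), and of Espnl and Cited4 (312 each). Of these 10 peaks 9 had one of the leading pair of motifs, with 5 of cccAgccc and 4 of cccTgccc.

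Most members were not at the shoulder of a KLF1 peak. The median distance to the nearest KLF1 peak was 40.4 kb, 23 members lay within 1 kb, 80 within 5 kb, 126 (21.3%, 18.2 to 24.8) within 10 kb and 432 (73.1%) within 100 kb. Nan-only peaks with C as the fourth base were placed alike, with a median of 40.5 kb and 21.5% (17.5 to 26.2) within 10 kb. Those without a motif were farther away, with a median of 123 kb and 13.3% (10.8 to 16.3) within 10 kb. By the authors' gene column the members belonged to 530 genes. There were 23 members without a gene and 3 whose gene name had become a number. Of the 530 genes 183 (34.5%) also had a KLF1 peak elsewhere and 347 had none. The share was 30.9% for genes with Nan-only peaks of the canonical kind and 28.4% for those without a motif. Clusters of members at a gene were few, with 28 genes holding 2, 2 genes holding 3 and 1 gene holding 4. The gene with 4 was 8430427H17Rik (Nol4l in RefSeq), with 3 in introns and 1 distal, and Rxra, a nuclear receptor gene, held 3. Pairs of members stood at Zfpm1, the GATA1 cofactor FOG1, at the retinoic acid receptor gene Rara and at the D-type cyclin gene Ccnd3.

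The gene lists held 0 to 3 genes with a member each. Of 21900 protein-coding genes in RefSeq, 499 (2.28%) matched a gene with a member, and 16.1% matched a gene with a KLF1 peak. None of 12 names of globins and their chaperone had a member, nor had any of the 24 names on a short list of ubiquitin and autophagy genes, which leaves out many genes of that kind. The list of heme synthesis and iron held 2 of 24, Alad and the ferritin heavy chain Fth1, and that of the red cell membrane 3 of 38, Cd47, Slc2a1 and Tmod1. Erythroid transcription and signalling held 1 of 32, Zfpm1, and Kruppel-like and Sp factors 1 of 26, Klf16. The cell cycle list held 2 of 39, Ccnd3 and Cdkn1a, and the list of p53, apoptosis and stress 2 of 34, Btg2 and Ddit3. Immediate early genes held 3 of 26, Fosl2, Ier5 and Junb, and chromatin regulators 3 of 30, among them the histone deacetylase genes Hdac4 and Hdac5. In the lists of genes of other blood cells and of other tissues only Gp9 (1 of 28) and Ttr (1 of 20) had a member. KLF1 peaks stood at 22 of 38 membrane names and 15 of 24 names of heme and iron.

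New RNA gave a value for 84 of the 530 genes, since the 4sU table lists only the 1556 genes that the authors called in K1-ER or K1-NanER against K1. A gene is called here when its q value by the authors' deposited table is at most 0.05. In K1-NanER 51 of the 84 rose and 14 fell, or 60.7% (50.02 to 70.5) and 16.7%, where 47.4% of the whole table rose and 28.3% fell. In K1-ER 48 rose and 6 fell, or 57.1% (46.5 to 67.2) and 7.14%, where 37.9% of the whole table rose and 11.5% fell. The median log2 fold change in K1-NanER was 1.24 for the 84 genes and 1.04 for the whole authors' deposited table. In K1-NanER 33 of 58 genes (56.9%, 44.1 to 68.8) with Nan-only peaks of the canonical kind rose, 38 of 60 (63.3%, 50.7 to 74.4) with Nan-only peaks without a motif, and 154 of 281 (54.8%, 49.0 to 60.5) with shared peaks. In K1-ER these shares were 60.3% (47.5 to 71.9), 46.7% (34.6 to 59.1) and 69.8% (64.1 to 74.8). Each of these intervals overlaps that of the members in the same line, and no share particular to the degenerate motif was shown. Median locus length, which was 21.1 kb for the 84 genes and 17.8 kb for the table, moved in the same direction, and its part in the result was not tested. At a q of 0.01, 32 rose and 4 fell in K1-NanER, and 29 rose and 3 fell in K1-ER. The summit nearest to the gene lay inside the locus for 45 of the 84 genes and within 50 kb for 82.

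Both comparisons use the same K1 libraries, and cloned lines were set against their parent, so what distinguishes the clones enters every value. The clones with KLF1-ER and with Nan-KLF1-ER were never tested directly against one another. RNA of Esr1, whose ligand-binding part the fusion proteins carry, stood in K1, K1-ER and K1-NanER at 2.41, 136 and 70.3 FPKM by the authors' deposited table. The part of the fusion's level in any value of these lines was not tested. Erythroid transcription genes were represented by 12 of 32 names in this table. Their summed levels in K1, K1-ER and K1-NanER were 629, 2397 and 894 FPKM by the authors' deposited table. Red cell membrane genes, with 12 of 38 names, had sums of 260, 714 and 575 FPKM in the same order by the authors' deposited table. Genes of other blood cells, with 2 of 28 names, had sums of 5.23, 4.29 and 3.11 FPKM by the authors' deposited table.

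Among genes with a member, a KLF1 peak elsewhere at the gene went with the calls in K1-ER. Of the 53 genes that had a member and also a KLF1 peak, 42 rose in K1-ER and 0 fell at the authors' q, and 32 rose and 4 fell in K1-NanER. At an unadjusted p under 0.05 in the authors' comparison, 48 of the 53 rose and 3 fell in K1-ER, among the latter Crtc1 and Kdm8, and of the 31 genes with a member and no KLF1 peak 9 rose and 7 fell. At the authors' q the calls of these 31 genes were otherwise: 6 rose, 6 fell and 19 were not called in K1-ER, while 19 rose, 10 fell and 2 were not called in K1-NanER. The rises in K1-ER covered 79.2% (66.5 to 88.0) of the former and 19.4% (9.19 to 36.3) of the latter. In K1-NanER the shares that rose were 60.4% (46.9 to 72.4) and 61.3% (43.8 to 76.3). A gene enters the table only when called in at least 1 comparison, so a gene not called in K1-ER had to be called in K1-NanER. Among genes that held neither a KLF1 peak nor another Nan-KLF1 peak, 4 rose and 6 fell in K1-ER. The 6 genes that rose in K1-ER without a KLF1 peak were Bcl9l, Dnajb5, Ehd2, Map7d1, Pgf and Ppfibp1. Over all 84 genes 30 rose in both lines, 5 fell in both, 21 rose and 9 fell in K1-NanER alone, and 18 rose and 1 fell in K1-ER alone. As shares these were 35.7%, 5.95%, 25%, 10.7%, 21.4% and 1.19%, against 18.6%, 6.43%, 28.8%, 21.9%, 19.2% and 5.08% of the whole table in the same order.

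**Figure D3:**
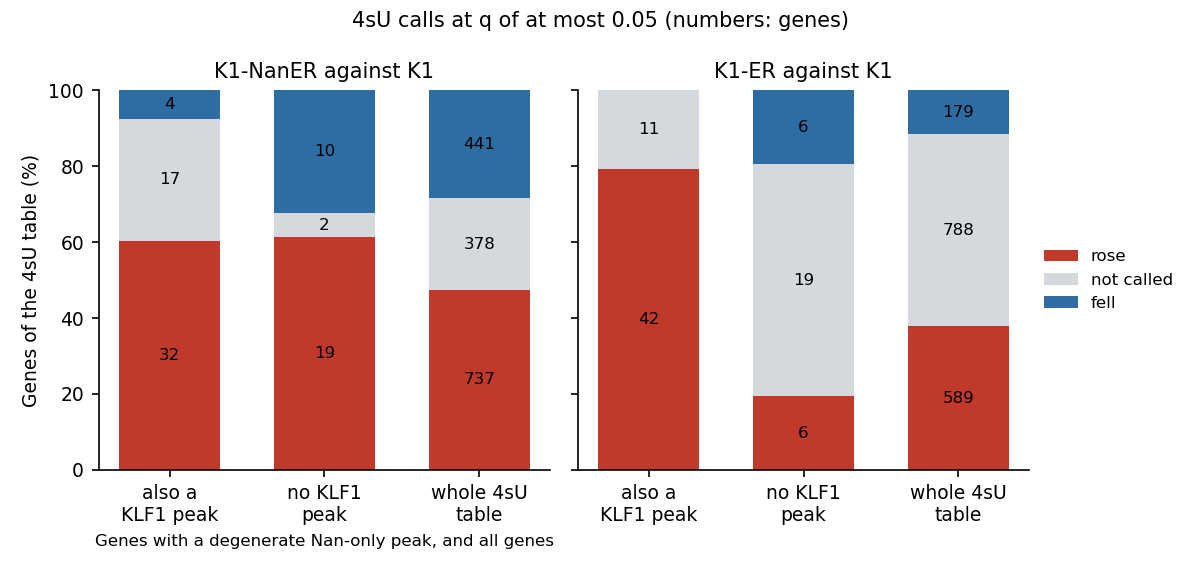
Share of genes of the 4sU table (vertical axis, percent) that rose, fell or were not called in K1-NanER (left) and K1-ER (right), for genes with a member and a KLF1 peak, genes with a member and no KLF1 peak, and the whole table. The numbers in the bars count genes: in K1-ER 42 of 53 genes with a KLF1 peak rose and 19 of 31 without one were not called.

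Rises in K1-NanER reached genes that K1 cells left nearly silent. Dact3, an antagonist of Wnt signalling with an intronic member (chr7:17465448-17465885), stood at the 0.1 FPKM floor in K1, at 1.19 FPKM in K1-ER and at 4.08 FPKM in K1-NanER by the authors' deposited table, where only the K1-NanER comparison was called. The floor is the lowest level that the table lists, and how it was set is not known here, so no fold is given against it. Pgf, placental growth factor, with a member in its promoter, stood at the floor in K1, at 2.29 FPKM in K1-ER and at 3.59 FPKM in K1-NanER by the authors' deposited table. Efna4, an ephrin ligand, and Rab11fip5, an endosome recycling protein, stood at 1.89 and 1.77 FPKM in K1-NanER, against the floor in K1 by the authors' deposited table. K1-ER had 0.136 FPKM of Efna4 and the floor level of Rab11fip5 by the authors' deposited table. These 4 genes held no KLF1 peak. The chaperone gene Dnajb5, which held none either, had the floor level in K1, reached 1.31 FPKM with KLF1-ER, and reached 1.403 FPKM with Nan-KLF1-ER by the authors' deposited table. Lgals7, a galectin, left the floor in K1-ER alone, with 3.90 FPKM there and 0.171 FPKM, not called, in K1-NanER by the authors' deposited table.

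Other large rises started from measurable levels. Lasp1, an actin-binding LIM protein with an intronic member, rose from 0.541 FPKM in K1 to 15.9 FPKM in K1-NanER (log2 fold change 4.88, q = 0.00535) by the authors' deposited table. It stood at 4.00 FPKM in K1-ER, which was not called (q = 0.0618). Azin1, which protects the polyamine enzyme ornithine decarboxylase from its inhibitor, rose from 6.46 to 124 FPKM in K1-NanER and to 25.6 FPKM in K1-ER by the authors' deposited table. Fads3, of the fatty acid desaturase family, rose from 5.57 to 101 FPKM in K1-NanER and to 42.5 FPKM in K1-ER by the authors' deposited table. The antiproliferative gene Btg2 rose from 27.0 to 488 FPKM in K1-NanER and to 337 FPKM in K1-ER by the authors' deposited table. The level in K1-NanER was the highest of the 3 for each of these genes, an order that is favoured by choosing them as its largest rises.

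Falls were led by Osgin1, whose promoter is printed above. It fell from 145 FPKM in K1 to 8.43 FPKM in K1-NanER (log2 fold change -4.10, q = 0.00213) and to 17.9 FPKM in K1-ER (-3.01, q = 0.00213) by the authors' deposited table. The member is chr8:121960801-121961200, and no KLF1 peak was assigned to the gene. Abcb8, a mitochondrial transporter with a member in a coding exon, fell from 24.0 to 5.43 FPKM in K1-NanER and to 10.8 FPKM in K1-ER by the authors' deposited table. Pgm2, a phosphoglucomutase, fell from 22.4 to 6.38 and 7.14 FPKM, Nek6, a mitotic kinase, from 11.6 to 4.24 and 4.39 FPKM, and Mid1, a ubiquitin ligase gene on the X chromosome, from 68.3 to 25.4 and 25.9 FPKM, in K1-NanER and K1-ER by the authors' deposited table. These were the 5 genes with a member that fell in both lines, and none of them held a KLF1 peak.

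Further falls were called in K1-NanER alone. Crtc1, the gene of the fourth strongest member, fell from 18.3 to 6.14 FPKM by the authors' deposited table, and its 11.0 FPKM in K1-ER was not called (q = 0.178). Fam53a, with 2 members beyond its locus, fell from 25.3 to 8.85 FPKM, and Kdm8, a JmjC-domain enzyme, from 28.1 to 12.2 FPKM by the authors' deposited table. Ccdc124 fell from 48.3 to 17.8 FPKM and Timm13, a chaperone of mitochondrial protein import, from 43.7 to 16.2 FPKM by the authors' deposited table.

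**Figure D4:**
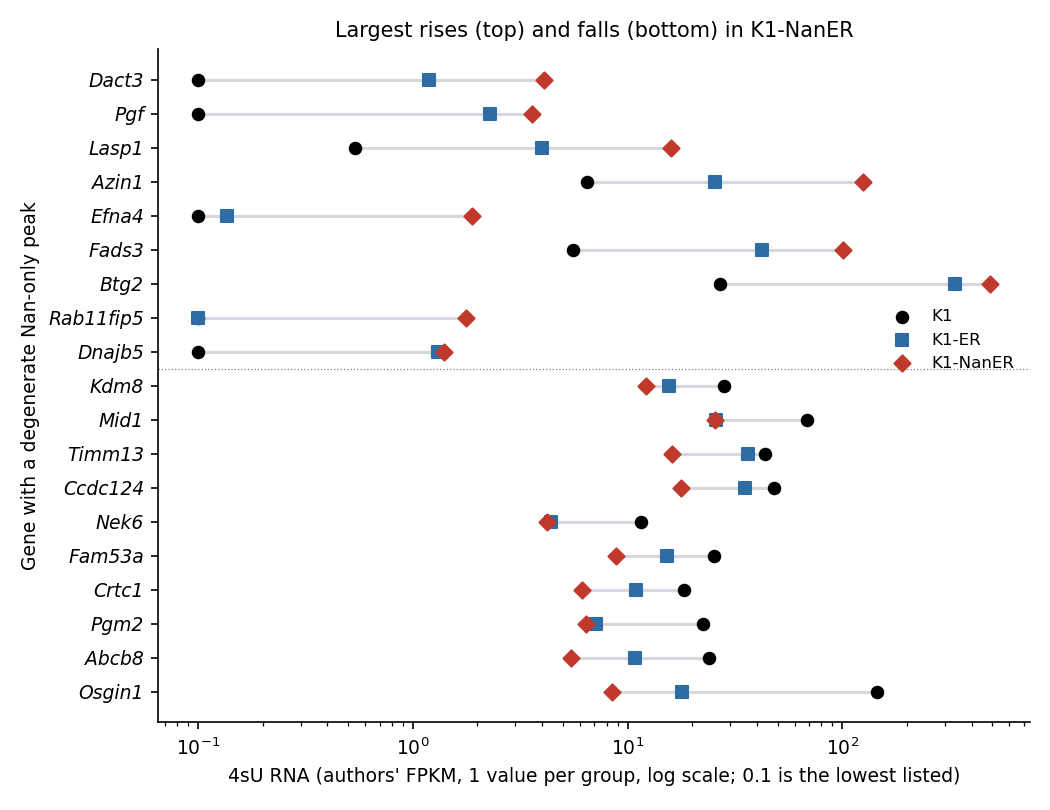
Levels of 4sU-labelled RNA (horizontal axis, the authors' FPKM on a log scale, 1 value per group) in K1, K1-ER and K1-NanER for 9 of the 10 largest rises and for the 10 largest falls in K1-NanER among genes with a member. Osgin1 is the widest fall, from 145 to 8.43 FPKM; at Rab11fip5 the K1 and K1-ER symbols coincide at 0.1 FPKM.

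Genes with more than 1 member that were called in K1-NanER were 8430427H17Rik, Podxl, Sh3bp1 and Triobp, which rose, and Fam53a. 8430427H17Rik, with 4 members, rose from 5.68 to 13.2 FPKM (log2 fold change 1.22, q = 0.0158), and to 12.6 FPKM in K1-ER (q = 0.0213) by the authors' deposited table. Sh3bp1, which encodes a GTPase-activating protein, rose from 6.29 to 40.9 FPKM in K1-NanER, and its 14.6 FPKM in K1-ER was not called (q = 0.109) by the authors' deposited table. Podxl, a sialomucin, rose from 27.4 to 59.1 FPKM and Triobp, an actin-binding protein, from 13.3 to 33.6 FPKM in K1-NanER by the authors' deposited table. In K1-ER Podxl rose to 78.6 FPKM (q = 0.00213), and the 27.1 FPKM of Triobp was not called (q = 0.069) by the authors' deposited table. The members of Podxl and Fam53a lay outside the locus of the gene, and those of Triobp in its introns.

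Of 10 listed names with a member in the 4sU table all rose in K1-ER, and 4, among them Junb, Cdkn1a and Btg2, also rose in K1-NanER. All 10 have a KLF1 peak. In K1-ER 79.2% of genes with a member and a KLF1 peak rose, and 37.9% of the whole table. Junb had 143 FPKM in K1, which went up to 865 in K1-ER and to 631 in K1-NanER by the authors' deposited table. Cdkn1a, the inhibitor p21, stood at 4.82, 51.3 and 32.5 FPKM in the same order by the authors' deposited table. Alad, the second enzyme of heme synthesis, rose from 6.51 to 54.2 FPKM in K1-ER (q = 0.00213), and its 7.34 FPKM in K1-NanER was not called (q = 0.886) by the authors' deposited table. Ccnd3 stood at 36.0, 278 and 64.8 FPKM, Klf16 at 60.8, 247 and 89.6 FPKM, Fosl2 at 4.94, 20.0 and 5.00 FPKM, Slc2a1, the glucose transporter GLUT1, at 57.8, 127 and 63.6 FPKM, and the stress factor gene Ddit3 at 54.6, 192 and 129.8 FPKM in K1, K1-ER and K1-NanER by the authors' deposited table, none of them called in K1-NanER. The other 6 were thus called in K1-ER alone. Of the 589 genes of the whole table that rose in K1-ER, 299 were not called in K1-NanER. Among genes with a member these were 18 of 48. With or without a member, 6 of the 10 cell cycle names and 7 of the 9 Kruppel-like and Sp names in the table rose in K1-NanER, where 47.4% of the whole table rose. In the other lists that hold these names the rises were 2 of 11 for heme and iron and 6 of 12 for the membrane. They were 7 of 15 for p53, apoptosis and stress, 3 of 7 for immediate early genes and 5 of 6 for chromatin regulators.

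In fetal liver 41 of the 530 genes are in the table of 793 genes, all of them called and at least 2-fold changed by the authors' deposited table. Of the 41 genes 36 rose in Nan/+ and 5 fell, or 87.8% (74.5 to 94.7) and 12.2%, where 75.4% of the table rose and 24.6% fell. The interval of the members includes the share of the table, and among genes with shared peaks 54 of 70 (77.1%) rose. Whole liver is a mix of cells, and fewer cells of a type and less RNA per cell cannot be told apart. Of 28 markers of other blood cells 11 are in the liver table and all 11 rose, from a summed 716 to 3328 FPKM, and of 20 markers of other tissues 4, of muscle and glia, are there and fell from 24.6 to 2.80 FPKM by the authors' deposited table. Of the erythroid transcription names 5 of 32 are there, and 2 rose and 3 fell. Their sums in wild type and Nan/+ were 436 and 214 FPKM by the authors' deposited table. Of the red cell membrane names 5 of 38 are there, and 2 rose and 3 fell. Their sums were 153 and 164 FPKM by the authors' deposited table. None of the 15 markers of other cells and none of these erythroid names holds a member. Their part in the liver result was not tested.

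Fam159b, with an intronic and a distal member, had a listed level of 0 in wild-type liver and of 75.5 FPKM in Nan/+ by the authors' deposited table. Inf2, a formin that builds actin filaments, rose from 5.57 to 81.6 FPKM (log2 fold change 3.87, q = 0.00244) by the authors' deposited table. Klhl30, of the kelch family, rose from 0.14 to 3.95 FPKM and has a member in its promoter, as does Pfkfb4, a regulator of glycolysis, which rose from 1.59 to 14.6 FPKM by the authors' deposited table. Shisa5, which acts in p53-dependent apoptosis, rose from 12.8 to 81.9 FPKM and Rfx5, a regulator of MHC class II genes, from 2.90 to 14.2 FPKM by the authors' deposited table. The calcium channel subunit gene Cacna2d2 rose from 0.18 to 2.04 FPKM and Mdga1 from 0.51 to 3.74 FPKM by the authors' deposited table. Cited4, with the strongest promoter member among these genes, rose from 86.7 to 220.9 FPKM by the authors' deposited table.

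The 5 liver genes that fell were Xist, Slc4a5, Tnnt2, Atg4a and Ephb2. Xist, the RNA that silences an X chromosome in female cells, stood at 25.1 FPKM in wild type and 0.04 FPKM in Nan/+ by the authors' deposited table. The labels give no sex for the livers, and the part of sex in the liver values was not tested. Xist overlaps an antisense gene and no strand setting is given, so reads of that pair cannot be told apart. Atg4a, an autophagy protease and the only other of the 41 genes on the X chromosome, fell from 22.4 to 9.22 FPKM by the authors' deposited table. Slc4a5, a bicarbonate transporter, fell from 1.43 to 0.07 FPKM, cardiac troponin T (Tnnt2), with a member in its promoter, from 3.55 to 0.87 FPKM, and the ephrin receptor gene Ephb2 from 2.80 to 1.32 FPKM by the authors' deposited table.

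**Figure D5:**
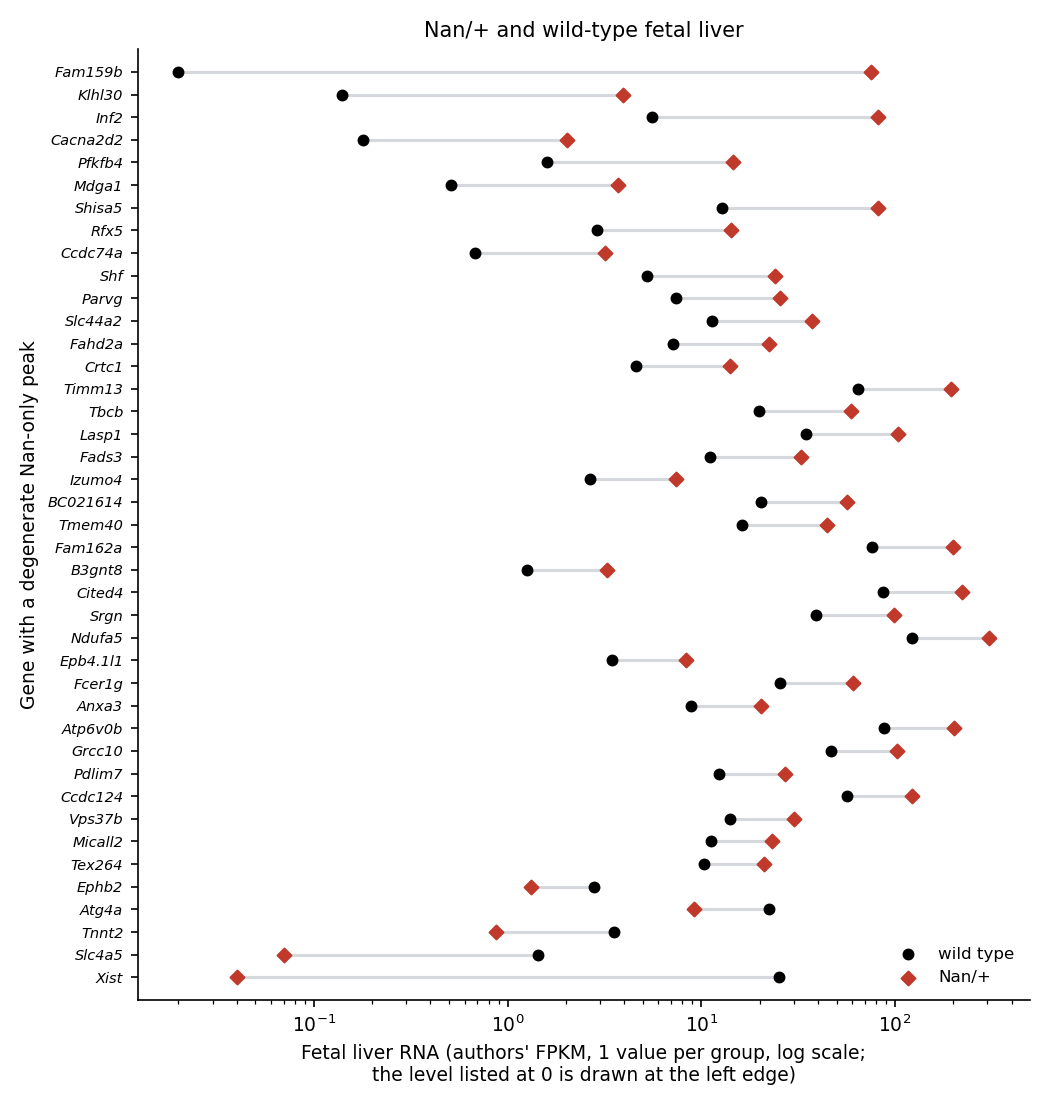
Levels of polyadenylated RNA in whole fetal liver (horizontal axis, the authors' FPKM on a log scale, 1 value per group) for the 41 genes with a member, in wild type (black) and Nan/+ (red). The 36 upper genes have the red symbol to the right and the 5 lower genes to the left; the level of Fam159b listed at 0 is drawn at the left edge.

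Only 8 genes with a member were in both RNA tables. Fads3, Lasp1 and Micall2 rose in K1-NanER and in Nan/+ liver, the last from 10.2 to 31.4 FPKM in cells and from 11.2 to 23.1 FPKM in liver by the authors' deposited table. In K1-ER Micall2 and Fads3 also rose, Micall2 to a higher level of 80.1 FPKM, and Lasp1 was not called (q = 0.0618) by the authors' deposited table. Crtc1, Timm13 and Ccdc124 fell in K1-NanER and rose in liver, where Crtc1 went from 4.61 to 14.1 FPKM, Timm13 from 64.8 to 195.7 FPKM and Ccdc124 from 56.3 to 123 FPKM by the authors' deposited table. Inf2 and Vps37b, which rose in liver, were not called in K1-NanER (q = 0.981 and 0.0878) and rose in K1-ER by the authors' deposited table. The signs of the 6 called genes were thus split evenly, 3 alike and 3 opposite. Among all genes of both tables that were called in K1-NanER, 27 of 60 had the same sign and 33 the opposite one.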

How the data were processed

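The authors' processed tables were used: annotated Nan-KLF1 and KLF1 peak lists, a 4sU gene table and a fetal liver gene table. Per the submitters' processing notes, MACS 1.4.2, TopHat2 2.0.10 and mm9 were used. Which program estimated expression, and how peaks received a location, gene and motif, is not given in the sources used here. The deposited RNA levels are FPKM values, 1 per group, with the authors' log2 fold change, p-value and q value. Fold enrichment in the deposited lists is a ratio, ChIP over input, and the rank score in the deposited lists was used only to read the authors' own intersection of 761 peaks, which holds 0 members. Depth per sample is unknown, so precision cannot be given from it.

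Overlap was taken as at least 1 bp, on coordinates as the lists give them. Computed here with Python 3.11.15, pandas 2.3.3 and scipy 1.17.1 were overlaps, shares with 95% Wilson intervals, medians with distribution-free 95% intervals, gene joins by symbol, and motif matches in RefSeq windows. The overlap rule and the median interval were tested on simulated data. No model was fitted, and no list was tested. Per-sample RNA values were not used, so groups were compared only through the authors' q value, called at 0.05. Nothing in the labels says whether the livers or the K1 libraries are separate litters or cultures. The 8 alternatives tried were overlap of at least 50% of the peak, KLF1 peaks within 500 bp, stronger members, q of 0.01, peaks within 50 kb of the gene, genes with no other peak, at least 1 FPKM in both groups, and the authors' intersection.

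Named peaks are the 10 strongest members. Named genes are the 10 largest rises and falls in K1-NanER that reach 1 FPKM in 1 of the groups, genes at the 0.1 FPKM floor, called genes with 2 or more members, the 8 largest liver changes each way (5 fell), and members of 12 gene lists that stand in an RNA table. Genes of printed promoters, genes on the X chromosome, genes with several members, genes of both tables, the fusion's Esr1 and the short lists of 6 or fewer were named after their values were seen. The members and the gene lists were chosen with earlier results of these data known. Gene lists include older symbols of some genes. Some items that the naming rule covers are not reported here.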

Additional observations from a re-analysis of the deposited data

How the results depend on the processing

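No paired analysis was possible because the tables give 1 value per group, and for the same reason no replicate could be left out. Of 79 values recomputed under 8 alternatives, 58 stayed within their interval or within 1.5 times the count and 21 moved. The number of members was 595 with overlap of at least 50% of the peak, 579 with KLF1 peaks within 500 bp, 306 at or above the median strength and 736 with the authors' intersection, which was chosen after seeing the data. Most moved counts come from fewer genes or peaks entering. At or above the median strength, 24 genes rose and 7 fell in K1-NanER, 19 rose and 3 fell in K1-ER, 18 rose in liver, the fifth base was G in 89.2% and the median fold enrichment was 136. At a q of 0.01, 32 rose and 4 fell in K1-NanER and 29 rose and 3 fell in K1-ER. With genes that hold no other peak, 15 rose in K1-NanER, 4 rose in K1-ER, where 6 fell, and 17 rose and 3 fell in liver. At 1 FPKM or more in both groups 2 fell in liver. With the authors' intersection, where shared peaks enter, 83 rose in K1-ER, 9 fell in liver, 36.8% lay within 10 kb of a KLF1 peak, 14.4% were in promoters and the median width was 468 bp. Rises outnumbered falls in 9 of 9 settings in K1-NanER and liver, and in 8 of 9 in K1-ER, the exception being genes with no other peak.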
